A study of Mus musculus with 4 samples.

Results

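Among 4136 filtered cell barcodes from mouse adipose tissue, 205 were gamma delta T cells that carried the receptor genes named below. They were chosen barcode by barcode from their counts of unique molecular identifiers (UMIs), which mark single captured RNA molecules. A barcode needed at least 1 UMI of the CD3 genes Cd3e, Cd3d and Cd3g together, and at least 3 UMIs of Tcrg-V6, Cd163l1, Trdv4 and Trdc together. It could hold no UMI of Cd4, Cd8a, Cd8b1 or Cd79a. These barcodes are called the gamma delta members. The levels of the genes in the rule are a description of how the members were chosen. These genes stayed in the test below, but their calls are not read as results.

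The study compared mice whose endothelial telomerase gene Tert was targeted (KO; Tie2e-cre, TERTfl/fl, mTmG) with controls of unmodified Tert (WT; Tie2e-cre, TERT+/+, mTmG). Subcutaneous (SC, inguinal) and intraperitoneal (IP, gonadal) adipose tissue gave 1 library each per genotype, so differences between genotypes or depots have no replicate error. The mice were male, 7 months old and had been on a high-fat diet for 5 months, and all of them carried the Cre recombinase driven by Tie2 regulatory sequence and the mTmG reporter, which switches from tdTomato to GFP where the recombinase has acted. How many mice went into a library is not stated, and the labels speak of cells as well as nuclei.

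Gamma delta T cells use a receptor of a gamma and a delta chain in place of the alpha and beta chains of conventional T cells. Some of them are programmed in the thymus to make interleukin 17, and they answer interleukin 23 and interleukin 1 without a need for prior priming. Such cells settle in barrier tissues and in fat, where those that use the Tcrg-V6 segment are known as a long-lived resident population linked to thermogenesis and stromal signalling.

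The V segments used in the rule mark which receptor a cell has rearranged, and the ends of both are shown since they, with Trdc and Cd163l1, picked out the cells. Tcrg-V6 (chr13:19190356-19190929, GRCm38, plus strand) and Trdv4 (chr14:54074905-54075515, plus strand) are V genes of the gamma and delta loci. Their last 120 bases in the GENCODE transcripts lie at chr13:19190810-19190929 and chr14:54075396-54075515, with the codons of the closing tyrosine and cysteine in capitals.
Tcrg-V6: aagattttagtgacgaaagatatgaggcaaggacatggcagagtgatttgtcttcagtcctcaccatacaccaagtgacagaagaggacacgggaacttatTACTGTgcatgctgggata
Trdv4: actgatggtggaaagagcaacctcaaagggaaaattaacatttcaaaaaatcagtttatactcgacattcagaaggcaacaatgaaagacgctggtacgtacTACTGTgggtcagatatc
The other 2 rule genes are Trdc (chr14:54142851-54148868, plus strand), the constant part of the delta chain, and Cd163l1 (chr7:140218267-140231145, plus strand), a scavenger receptor family gene. V segments sit at the 5′ end of a rearranged transcript and these were 3′ libraries, so that a cell without a V segment UMI may still use that segment.

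Of the 205 members, 203 had a Trdc UMI, 167 a Cd163l1 UMI, 146 a Trdv4 UMI and 92 a Tcrg-V6 UMI. All 92 cells with Tcrg-V6 and all 146 with Trdv4 also had Cd163l1, and 38 cells met the rule through Trdc alone. The median sum of the 4 rule genes was 36 and 33 UMIs in WT SC and KO SC, and 28 and 48 UMIs in WT IP and KO IP. The threshold of 3 lay in a thin part of the distribution. Of the barcodes that met the rest of the rule, 398 had no UMI of the 4 genes, 12 had 1, 4 had 2, 5 had 3 and 6 had 4.

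The name gamma delta T17 held for the members with Cd163l1 and not for most of the others. At least 1 UMI of the type 17 genes Il23r, Il1r1 and Blk was present in 164 of the 167 members with Cd163l1, but in 11 of the 38 without it. By library these 11 were 4 of 13 in WT SC, 2 of 13 in KO SC, 1 of 7 in WT IP and 4 of 5 in KO IP. The 38 cells without Cd163l1 are therefore described separately below. Foxp3, which defines regulatory T cells, was at 0 in the members of all 4 libraries. The other genes of its marker list were present, with 548 UMIs of Il2ra, 520 of Ikzf2 and 69 of Ctla4. Their log2 differences from the other T cells defined below were 2.80, 0.14 and -3.25. Trav1 and Trav11, V segments of invariant T cells, were also at 0 in members. The other T cells held 13 and 1 UMIs of them, so their absence cannot tell invariant T cells apart. Macrophage markers summed to 0 to 3 UMIs per library. B cell markers summed to 15, 127, 7 and 18 UMIs in members of WT SC, KO SC, WT IP and KO IP. In the same order, natural killer cell markers summed to 16, 196, 20 and 30 UMIs. Markers of group 2 innate lymphoid cells summed to 27, 179, 16 and 29 UMIs. Of 5 stromal markers, the members held 1 UMI in WT SC, 3 in KO SC and 11 in KO IP, against 1188 in WT IP, where 7 of 20 members had one. Both members called doublets by Scrublet were in WT IP. The part of these stromal UMIs in each WT IP value below was not tested, and values without such cells are given where they moved.

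After filtering, SC tissue gave 971 barcodes in WT and 1969 in KO, and IP tissue gave 675 and 521. KO SC and WT IP shared 93 cell barcodes, with a median of 601 UMIs in KO SC and 35392 in WT IP. None of them was a member in KO SC and 1 was a member in WT IP. The members of WT SC and KO SC summed to 325298 and 822219 UMIs, and those of WT IP and KO IP to 213347 and 341004. Tert had 1 UMI in the WT SC members and none in the other 3 libraries, so its deletion was not detectable in these cells at this depth.

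The members were a larger share of the barcodes in both KO libraries than in both WT libraries. They numbered 31 in WT SC, a share of 3.19% (2.18 to 4.50%), and 117 in KO SC, a share of 5.94% (4.94 to 7.08%). In IP tissue they numbered 20 in WT, a share of 2.96% (1.82 to 4.54%), and 37 in KO, a share of 7.10% (5.05 to 9.66%). All intervals given are exact 95% intervals that cover counting error only, and not differences between mice. Those of gene levels also leave out differences between cells. The KO share was 1.86 times the WT share in SC tissue (log2 ratio 0.90, interval 0.31 to 1.52) and 2.40 times in IP tissue (1.26, interval 0.44 to 2.12). The shares of the depots had intervals of the ratio that included 0 within each genotype, with IP against SC log2 ratios of -0.11 in WT and 0.26 in KO.

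The denominator decided the comparison of depots. Taken over the barcodes with a CD3 UMI, the members were 31 of 481 in WT SC (6.44%), 117 of 1200 in KO SC (9.75%), 20 of 133 in WT IP (15.04%) and 37 of 132 in KO IP (28.0%). On that scale the IP share was 2.33 times the SC share in WT and 2.87 times in KO. The KO to WT ratio kept its direction, at 1.51 in SC tissue and 1.86 in IP tissue.

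**Figure D1:**
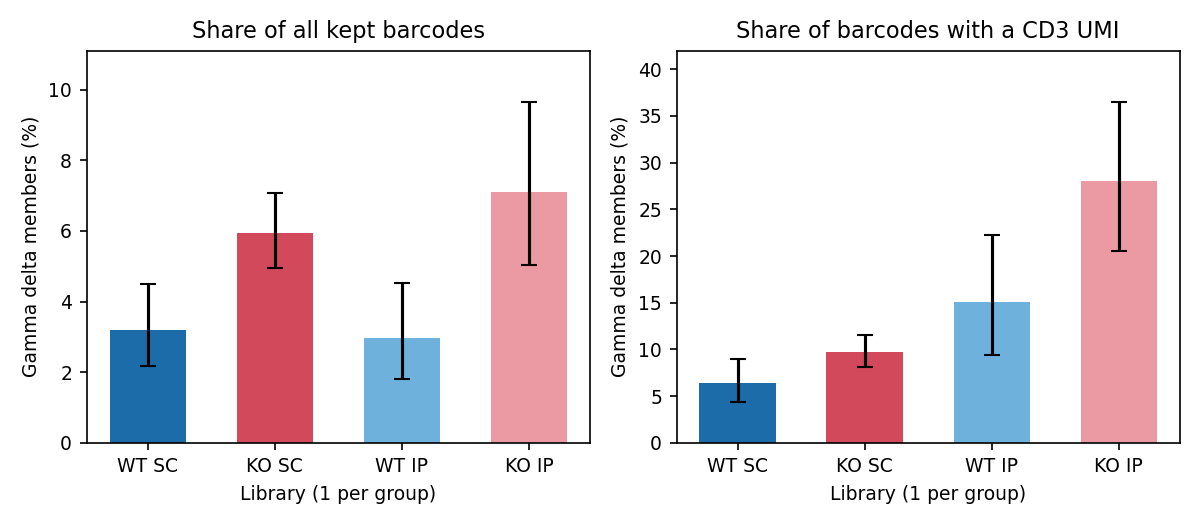
Share of gamma delta members in each library, in percent of all kept barcodes (left) and of the barcodes with a CD3 UMI (right). Bars are shares and whiskers exact 95% binomial intervals that cover counting error only. Both KO bars stand above both WT bars on the left, at 5.94% and 7.10% against 3.19% and 2.96%, and the IP bars stand highest on the right.

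The larger KO share lay in the members with Cd163l1. These were 18 cells in WT SC (1.85% of barcodes) and 104 in KO SC (5.28%), a ratio of 2.85 with a log2 interval of 0.78 to 2.32. In IP tissue they were 13 cells in WT (1.93%) and 32 in KO (6.14%), a ratio of 3.19 with a log2 interval of 0.70 to 2.73. Members without Cd163l1 numbered 13 in each SC library, and 7 and 5 in WT IP and KO IP. Their KO to WT ratio was 0.493 in SC tissue and 0.925 in IP tissue, with log2 intervals of -2.25 to 0.21 and -2.11 to 1.76. The difference between these ratios was not tested.

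The 2 kinds of members carried different genes at like depth, with a median of 7802 UMIs in cells with Cd163l1 and 8953.5 in cells without. Il23r, the receptor for interleukin 23, was seen in 152 of 167 cells with Cd163l1 and 9 of 38 without. The respective counts were 149 and 7 for Il1r1, the interleukin 1 receptor, 146 and 9 for the transcription factor gene Zbtb16, and 160 and 9 for the kinase gene Blk. Receptors of tissue entry and retention followed the same split, with Ccr2 in 156 and 10 cells and Cxcr6 in 163 and 19. Secreted factors were also on that side. Il17a was seen in 105 and 5 cells, Il17f in 52 and 1, and Areg, which encodes the growth factor amphiregulin, in 57 and 1. KO SC held 104 of the 167 cells with Cd163l1, and 82 of the 105 with Il17a. For Il17a the split was 7 of 18 against 0 of 13 in WT SC, and 82 of 104 against 2 of 13 in KO SC. In WT IP it was 6 of 13 against 1 of 7. KO IP went the other way, at 10 of 32 cells with Cd163l1 and 2 of 5 without.

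By CPM, 18 of 20 type 1 and cytotoxic genes and 11 of 11 homing genes were higher in members without Cd163l1, against 3 of 26 type 17 genes. The same count over all genes was not made, so these counts cannot show whether a list stands out. The genes named here were picked after their values were seen. Ccl5, a chemokine of cytotoxic cells, was at 4683 CPM (UMIs of a gene scaled to an equal total of UMIs per group of cells) in them and 54.4 in cells with Cd163l1. Nkg7, a cytotoxic granule gene, was seen in 25 of 38 cells without Cd163l1 and 3 of 167 with it. Klrd1, part of a natural killer receptor, was seen in 25 and 3 cells, and Ly6c2 in 22 and 1. Ccr7, the lymph node chemokine receptor gene of naive cells, was seen in 16 and 7. The kinase gene Lck was seen in 25 and 2, and the costimulatory receptor gene Cd28 in 19 and 1. Ly6c2 shares 62.9% of the 25-base words at its 3′ end with Ly6c1, so its counts are uncertain. In each of the 4 libraries Il23r was seen in a larger share of the cells with Cd163l1 and Ccl5 in a larger share of those without. These counts pool cells of 4 libraries and carry no test.

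**Figure D2:**
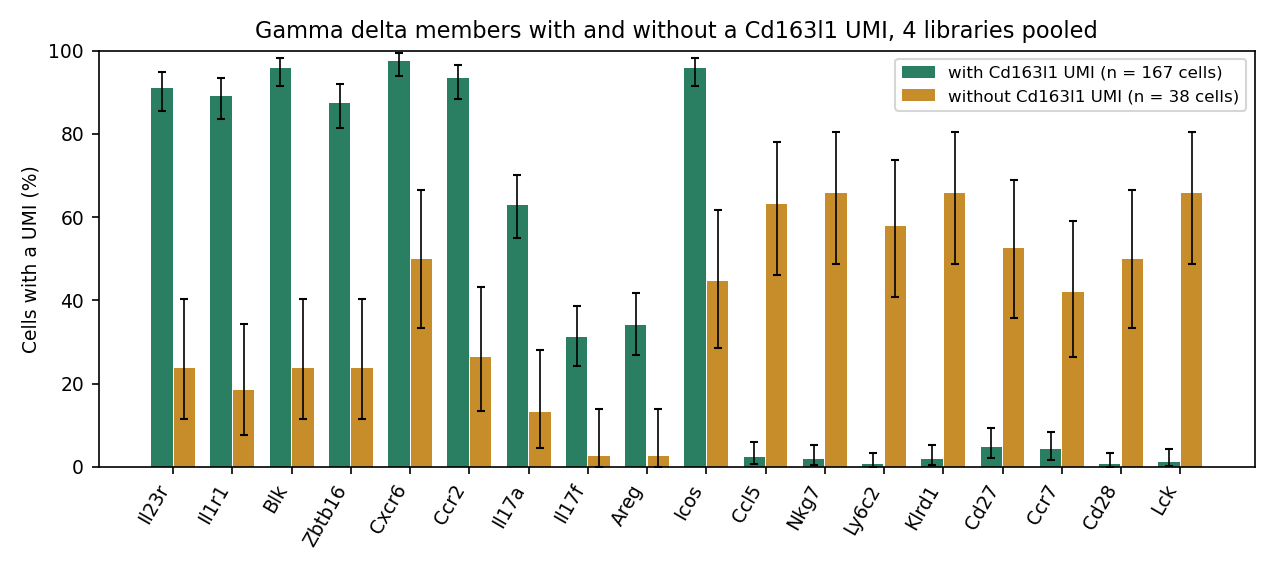
Share of gamma delta members with a UMI of each gene, in percent, for the 167 cells with a Cd163l1 UMI (green) and the 38 without (ochre), over all 4 libraries. Whiskers are exact 95% binomial intervals. The type 17, residence and secreted factor genes on the left are higher in green and the cytotoxic and homing genes on the right in ochre, where Lck, Nkg7 and Klrd1 each reach 25 of 38 cells.

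Members were then compared with the other T cells of the same libraries, which were 1634 barcodes with a CD3 UMI and no UMI of the 4 receptor genes or of Cd79a. UMIs were summed per library and population and tested with the edgeR quasi-likelihood test, with library as a block and Benjamini-Hochberg adjustment over 7230 genes. The 4 libraries were the replicates, and they differ in genotype and depot. Of the genes tested, 592 were higher (8.19%) and 447 lower (6.18%) in members at an adjusted p under 0.05, and the median log2 difference of all genes was -0.04. These counts include genes of the rule, with 4 receptor and 2 CD3 genes higher and 3 excluded genes lower. They also include 3 gamma delta receptor segment genes that were higher. Against other T cells without Cd4 and Cd8 UMIs, which match the rule of the members more closely, 230 were higher and 96 lower. Without WT SC the counts were 247 and 125, and without KO SC 370 and 271.

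Of 26 type 17 genes, 23 could be tested, and 19 of them were higher in members, with none lower and a median log2 difference of 3.65. Sox13, which encodes a factor needed for type 17 gamma delta T cells to form, had 17, 23, 10 and 27 UMIs in members of WT SC, KO SC, WT IP and KO IP. It had 2, 7, 1 and 0 UMIs in the larger groups of other T cells. The levels in members were 28.0 to 79.2 CPM and those in other T cells 0 to 0.920 CPM, so that the groups did not overlap, and the log2 difference was 5.76 ± 0.49 (SE, edgeR adjusted p = 2.6e-05). Zbtb16, which encodes the factor of innate-like T cells, was 4.16 ± 0.56 higher, and its call was lost without WT SC. Rora and Maf, further factors of type 17 cells, rose by less, at 2.35 ± 0.26 and 1.76 ± 0.23. Against a narrower set of Cd4 T cells the Maf difference was -0.039, and its call was lost.

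Receptors of innate cytokines rose with these factors. Il23r was at 578, 708, 361 and 686 CPM in members of WT SC, KO SC, WT IP and KO IP, and at 12.6 to 48.2 CPM in other T cells, a log2 difference of 4.91 ± 0.34 (edgeR adjusted p = 4.2e-05). Il1r1 was at 409, 392, 670 and 666 CPM, and the highest other T cells, those of KO IP, reached 112 CPM. Its log2 difference was 4.29 ± 0.53, a call lost without WT SC and without KO SC. Il17re, which encodes a receptor chain for interleukin 17 family cytokines, rose by 3.44 ± 0.52, Il18r1 for interleukin 18 by 1.75 ± 0.22, and Il7r for the survival factor interleukin 7 by 1.14 ± 0.14.

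Blk, a Src family kinase gene known from B cells and from type 17 gamma delta T cells, had the most extreme log2 difference of the type 17 genes. It was at 458, 716, 333 and 639 CPM in members and at 0.92 to 7.06 CPM in other T cells, a log2 difference of 7.38 ± 0.36 (edgeR adjusted p = 1.57e-06). Lck, the Src family kinase of conventional T cells, moved the other way, at 8.80 to 79.7 CPM in members and 245 to 299 CPM in other T cells (-2.80 ± 0.42). That call was lost without WT SC, without KO SC and at a receptor minimum of 4 UMIs. Of 10 receptor signalling genes, Zap70 and Cd247, a kinase and a chain of the receptor complex, were higher. The Cd247 call was lost without WT SC, without KO IP and against other T cells without Cd4 and Cd8 UMIs. Lck, Cd2 and Ptprc, the latter 2 encoding surface proteins of T cells, were lower.

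The alpha beta receptor genes were lower, as 5 of 6 passed the test in that direction. Trac, the constant part of the alpha chain, was at 23.5 to 84.4 CPM in members and 371 to 465 CPM in other T cells, a log2 difference of -3.15 ± 0.27. Trbc1, a beta chain constant gene, was at 352 to 606 CPM in members and 334 to 700 CPM in other T cells, and the groups overlapped (-0.28 ± 0.19, edgeR adjusted p = 0.388). The beta chain constant gene Trbc2 and the surface receptor genes Cd5, Cd6 and Cd28 also fell. Cd28 lost its call without KO SC, without WT IP and at a receptor minimum of 4 UMIs. Cd6 lost its call without WT SC, without WT IP and at that receptor minimum. Against other T cells without Cd4 and Cd8 UMIs the calls of Trbc2 and Cd6 were lost. Transcripts of the gamma and delta loci come from the same rearranged genes as the rule and were not read as a test. Tcrg-C1 was at 489 to 718 CPM in members, Tcrg-C2 at 63.2 to 172 CPM and Tcrg-C4 at 86.1 to 144 CPM. Tcrg-C1 shares 45.2% of the 25-base words at its 3′ end with Tcrg-C2, so reads may be split between them.

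Genes of tissue residence were higher in part. Of 18 tested, 5 rose and none fell, with a median log2 difference of 1.18. Cxcr6, a receptor that holds T cells in tissues, was at 885, 1801, 698 and 748 CPM in members and at 38.6 to 158 CPM in other T cells, a log2 difference of 3.60 ± 0.72. Its edgeR adjusted p of 0.0498 lay at the threshold and was 0.17 without WT SC. Itgae, which encodes the CD103 integrin chain that binds epithelium, rose by 1.97 ± 0.39, a call lost without WT SC. Capg, an actin capping gene, rose by 2.33 ± 0.24, Cd44, an adhesion receptor, by 1.83 ± 0.29, and the costimulatory receptor gene Icos by 1.34 ± 0.33. The Cd44 call was lost without WT SC. The Icos call was lost without KO SC, without KO IP and against other T cells without Cd4 and Cd8 UMIs. Cd69, the usual residence marker, was at 225 to 280 CPM in members and 244 to 253 CPM in other T cells.

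Homing and quiescence genes were lower in 5 of 11 and higher in none, with a median log2 difference of -1.71. S1pr1, which encodes the receptor for exit from tissue, was at 148, 25.5, 23.4 and 52.8 CPM in members of WT SC, KO SC, WT IP and KO IP and at 227, 211, 101 and 114 CPM in other T cells, lower within each library. It fell (-1.71), as did Tcf7, which encodes a factor of naive and memory cells (-1.20), Il6ra, the interleukin 6 receptor (-3.45), and Dapl1 (-4.25). The S1pr1 call was lost without WT IP and without KO IP, and the Tcf7 call without WT SC, without WT IP and without KO IP. Against other T cells without Cd4 and Cd8 UMIs 1 of these genes passed the test. Among members without B cell, macrophage and stromal marker UMIs 10 passed. Of 17 type 1 and cytotoxic genes tested, Klrd1, Cd27 and Eomes were lower and none was higher, and the median log2 difference was -0.77. Cd27, a costimulatory receptor gene, fell by 2.15 on the log2 scale. The calls of Klrd1 and Eomes were lost without WT SC, and that of Eomes also without KO SC and without KO IP. Ccl5 was at 252 to 1277 CPM in members and 521 to 3337 CPM in other T cells, and the groups overlapped. Against a narrower set of Cd4 T cells the median of the list was 0.65, so its direction turned with the cells compared.

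**Figure D3:**
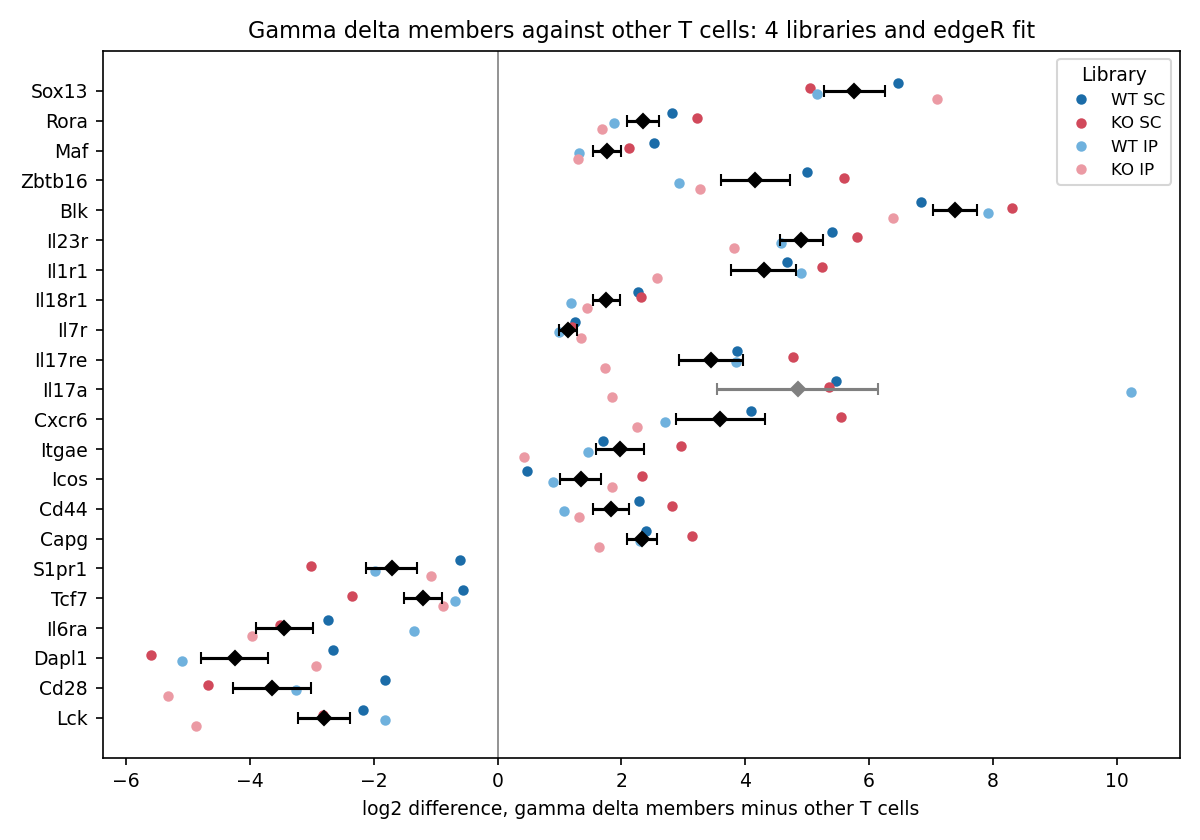
Log2 difference between gamma delta members and other T cells for 22 genes. Coloured points are the 4 libraries, diamonds the edgeR estimate with its standard error, in black where the adjusted p was under 0.05 and grey where it was not. Type 17 genes sit right of 0 in each library, Blk furthest by its estimate of 7.38, and the homing genes, Cd28 and Lck at the bottom sit left of 0. The outlying WT IP point of Il17a rests on 0 UMIs in other T cells and depends on the constant added.

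Of 7 secreted factor genes tested, Il17a among them, Tnf, Lta and Ltb, which encode cytokines of the tumour necrosis factor family, rose, at log2 differences of 1.73 ± 0.27, 1.94 ± 0.48 and 1.31 ± 0.19. Ltb was at 393 to 615 CPM in members and 121 to 278 CPM in other T cells. The calls of Tnf and Ltb were lost against other T cells without Cd4 and Cd8 UMIs, and that of Lta without WT SC and without WT IP. Areg was at 43.0, 879, 32.8 and 96.8 CPM in members and at 8.28 to 35.3 CPM in other T cells, with an edgeR adjusted p of 0.297. Of 6 chemokine receptor genes tested, Cxcr6 passed. Ccr2, the receptor for monocyte-attracting chemokines, was at 397, 726, 169 and 475 CPM in members and 15.3 to 129 CPM in other T cells. Its log2 difference of 3.33 ± 0.95 did not pass (edgeR adjusted p = 0.12), although it was positive in 4 of 4 libraries and passed in DESeq2.

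Checkpoint genes divided. Tnfrsf4, which encodes the OX40 costimulatory receptor, had 1 UMI in all members and 1375 in other T cells. Ctla4 and Tnfrsf18, a checkpoint gene and a gene of regulatory T cells, were also lower. The Ctla4 call was lost without WT SC, without KO SC and against other T cells without Cd4 and Cd8 UMIs. Icos was higher. Pdcd1, which encodes the PD-1 checkpoint receptor, was at 123, 266, 164 and 449 CPM in members and at 7.19 to 66.2 CPM in other T cells, a log2 difference of 3.29 ± 0.74 with an edgeR adjusted p of 0.0607.

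Genes of metabolism and of cell stress were read beside the 14.4% of all genes tested that passed in either direction. Among 9 lipid genes tested, Plin2, which coats lipid droplets, rose by 2.28 ± 0.23, and no other passed. Among 15 glycolysis genes Pfkp, a phosphofructokinase gene, rose by 1.36 ± 0.20 and no other passed. Of 6 senescence regulators none passed. Of 10 hypoxia genes 1 rose and 2 fell, and of 15 immediate early genes 3 rose. Of 11 proliferation genes 6 fell, among them Mki67 (-1.97), Rrm2 (-4.28) and Birc5 (-3.37), all used in dividing cells. Without WT SC the calls of Mki67, Birc5, Tyms and Stmn1 were lost. That of Stmn1 was also lost without KO SC and against other T cells without Cd4 and Cd8 UMIs. All 4 haemoglobin genes were lower in members, which held 30 to 68 haemoglobin UMIs per library.

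With the rule genes and the receptor, immunoglobulin, haemoglobin, ribosomal and mitochondrial genes left out, the 10 largest rises were Fat3, Npnt, Shank2, Blk, Fstl4, Mtcl1, Cryba4, Zbtb7c, Tdrd9 and A130023I24Rik, with log2 differences of 9.003 to 6.48. Fat3, which encodes a giant cadherin, had 21, 57, 23 and 21 UMIs in members of WT SC, KO SC, WT IP and KO IP and 1 UMI in all other T cells. Npnt, which encodes the matrix protein nephronectin, had 29, 152, 20 and 33 UMIs in members and 4 in other T cells. With the same genes left out, the 10 largest falls were Gm44174, Tbc1d30, Ifi214, Tnfrsf4, Lrig1, Rrm2, Dapl1, Gm50218, Themis and Ifi27l2a. The first 3 were at 0 in all members, so that their fitted values depend on the constant added and their order is no ranking. Gm44174 lies between Cd8b1 and Cd8a on chromosome 6, next to the latter, and the rule required 0 UMIs of both, so its absence is no independent result. Themis, a gene of alpha beta T cell selection, fell by 4.19 on the log2 scale. Its call was lost without WT SC, without KO SC, without WT IP and against other T cells without Cd4 and Cd8 UMIs.

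Il17a, the cytokine gene that names these cells, was seen in all 4 libraries but at very different levels. It was present in 7 of 31 members of WT SC, 84 of 117 of KO SC, 7 of 20 of WT IP and 12 of 37 of KO IP, which is 22.6%, 71.8%, 35.0% and 32.4%. After thinning each cell to 2000 UMIs, which left out 3 members of KO SC, the shares were 12.9%, 63.2%, 30% and 18.9%. In B cells, which should lack it, 1 of 466 in KO SC and none in the other libraries had a UMI, at median depths of 4919 to 9305.5 UMIs against 7140 to 10136 in members. The level was 111 and 1466 CPM in WT SC and KO SC, and 548 and 208 CPM in WT IP and KO IP. KO SC stood above the others. In other T cells Il17a was at 0 to 57.6 CPM, and the log2 difference of 4.84 ± 1.31 did not pass the test (edgeR adjusted p = 0.115), although it was positive in 4 of 4 libraries, passed in DESeq2 and passed without KO IP.

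Il17f, which encodes the partner cytokine, was seen in KO members and in no WT member. It had 0 UMIs in WT SC and WT IP, 291 in KO SC and 32 in KO IP. It was seen in 49 of 117 cells of KO SC and 4 of 37 of KO IP, and 1 cell held 25 of the 32 UMIs of KO IP. Against a floor of 3 UMIs per library the level was at least 38.4-fold higher in KO SC than WT SC. The same bound was 6.67-fold for KO IP against WT IP, but it rests mostly on that 1 cell and does not describe the group. Il22, a related cytokine gene, had 3 UMIs in KO SC and none elsewhere.

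The sequence upstream of these genes is shown because Il23r and both cytokine genes hold the letters AGGTCA, a core that nuclear receptors such as the Rora product bind. The 250 bases before the start of Il17a (chr1:20730655-20730904, plus strand), Il17f (chr1:20784271-20784520, minus strand) and Il23r (chr6:67491856-67492105, minus strand) are from RefSeq, build GRCm38.p6. AGGTCA and its reverse complement TGACCT are in capitals.
Il17a: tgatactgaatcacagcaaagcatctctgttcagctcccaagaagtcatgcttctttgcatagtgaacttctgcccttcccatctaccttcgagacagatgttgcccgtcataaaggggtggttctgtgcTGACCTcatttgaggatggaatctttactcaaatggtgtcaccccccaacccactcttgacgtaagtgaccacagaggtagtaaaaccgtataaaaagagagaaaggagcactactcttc
Il17f: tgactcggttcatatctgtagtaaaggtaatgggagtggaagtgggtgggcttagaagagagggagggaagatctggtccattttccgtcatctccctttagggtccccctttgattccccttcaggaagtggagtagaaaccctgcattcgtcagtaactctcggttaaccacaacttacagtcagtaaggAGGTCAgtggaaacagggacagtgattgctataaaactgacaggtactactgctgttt
Il23r: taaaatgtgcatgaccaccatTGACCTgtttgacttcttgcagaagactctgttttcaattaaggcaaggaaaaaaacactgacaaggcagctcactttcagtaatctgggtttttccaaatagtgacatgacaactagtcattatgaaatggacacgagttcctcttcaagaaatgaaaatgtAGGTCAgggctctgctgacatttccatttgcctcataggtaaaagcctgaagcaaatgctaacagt
On either strand the 6 letters were present in 6 of 29 promoters (20.7%) of the 20 type 17 genes matched, and in 4607 of 32851 promoters of all genes (14.0%). A match is a description of the letters and says nothing about binding in these cells.

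Genotype was compared within each depot as the ratio of CPM over members, for genes with at least 20 UMIs in the pair. The intervals of these ratios treat each UMI as independent, so they are too narrow where few cells hold most UMIs. At least 2-fold higher in KO were 6.35% of 5843 genes in SC tissue and 8.96% of 4433 in IP tissue, and at least 2-fold lower 8.95% and 8.14%. Of 4111 genes compared in both depots, 39 were at least 2-fold higher in both (0.949%) and 31 lower in both (0.754%), and 49.9% had the same sign. For type 17 genes, 4 of 24 were at least 2-fold higher and 2 lower in KO SC, and 6 of 23 higher and 1 lower in KO IP. Among members with Cd163l1 alone, 2 of 23 were higher and 3 lower in SC tissue, with a median log2 ratio of -0.082, and 4 of 22 higher and 1 lower in IP tissue.

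Il17a went in opposite directions in the depots. The KO to WT log2 ratio was 3.71 (3.25 to 4.25) in SC tissue and -1.39 (-1.84 to -0.96) in IP tissue. Among members with Cd163l1 alone the values were 3.20 and -2.08. In WT SC 1 cell held 17 of the 36 Il17a UMIs and in WT IP 1 cell held 52 of 117, while in KO SC the highest cell held 92 of 1205.

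Of the checkpoint and costimulation genes, 3 of 7 were at least 2-fold higher and 1 lower in KO SC, and 3 of 5 higher and 0 lower in KO IP. Of the residence genes, 5 of 16 were higher and 2 lower in KO SC, and 2 of 14 higher and 0 lower in KO IP. In the type 1 and cytotoxic list, which holds Klrk1, 4 of 14 were higher and 3 lower in KO SC. In KO IP 1 of 9 genes of that list was higher and 4 were lower, among them Nkg7 (-3.19) and Ccl5 (-2.23). Icos was at 501 and 1945 CPM in WT SC and KO SC and at 441 and 1047 CPM in WT IP and KO IP, log2 ratios of 1.95 (1.72 to 2.20) and 1.24 (0.92 to 1.59). Pdcd1 had log2 ratios of 1.10 and 1.44, Klrk1, an activating receptor gene, of 0.95 and 1.10, Ccr2 of 0.87 and 1.48, and Rgs1, a regulator of chemokine signalling, of 1.26 and 0.72. Other genes of these lists had no such ratio in 1 of the depots, as Cxcr6 was at 1.02 in SC tissue and 0.097 (-0.20 to 0.40) in IP tissue, Cd69 at -0.25 and 0.19, and Tnfrsf18 at -1.81 and 0.42. Without members that held markers of other cell types, the Pdcd1 ratio in IP tissue was 0.83. Areg was at 43.0 CPM in WT SC and 879 in KO SC, a log2 ratio of 4.30 (3.60 to 5.23), and at 32.8 and 96.8 CPM in IP tissue, a ratio of 1.48 (0.36 to 2.98). All of its UMIs in KO libraries came from cells with Cd163l1, which were 41 of 104 in KO SC and 7 of 32 in KO IP.

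Ratios of type 17 genes other than Il17a varied. In SC tissue Blk (0.64), Rora (0.43) and Il17re (1.095, with a lower bound of 0.0030) had intervals above 0, and the log2 ratios of Il1r1 (-0.07), Il18r1 (-0.10) and Maf (-0.10) had intervals that included 0. In IP tissue Il18r1 (1.42), Il7r (1.22), Blk (0.94), Il23r (0.92) and Rora (0.82) had intervals above 0. Among members with Cd163l1 alone Il1r1 had ratios of -0.53 (-0.82 to -0.22) in SC tissue and -0.42 (-0.73 to -0.095) in IP tissue, both below 0. Il23r in SC tissue was at a ratio of 0.29 over all members and -0.029 over those with Cd163l1. Cd163l1 itself, a rule gene, was at 0.37 and -0.11. Both ratios were no longer above 0 when members without Cd163l1 were left out, a selection made on Cd163l1 itself. The share of members that carry Cd163l1 was 58.1% in WT SC and 88.9% in KO SC. Its part in these ratios was not tested.

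Homing genes were at lower levels in KO SC than in WT SC, as 6 of 8 compared were at least 2-fold lower with a median log2 ratio of -1.71. In IP tissue 1 of 7 was, and the median was 0.06. Klf2, which encodes a factor of quiescent and circulating T cells, was at 516 CPM in WT SC and 87.6 in KO SC, a log2 ratio of -2.55 (-2.98 to -2.15), and at 127 and 64.5 CPM in IP tissue, a ratio of -0.97 (-1.85 to -0.11). Members with Cd163l1 alone gave -2.76 and -0.74, the latter with an interval that included 0. Ccr7 had 42 UMIs in WT IP, of which 1 cell held 37.

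Immediate early and heat shock genes, which rise during tissue dissociation, also differed between these libraries. Hspa1b, a heat shock gene, was at 812, 74.2, 234 and 109 CPM in WT SC, KO SC, WT IP and KO IP. Fos was at 658, 725, 637 and 290 CPM and Jun at 188, 146, 689 and 208 CPM in the same order. The median KO to WT log2 ratio of the 15 genes of that list was 0.25 in SC tissue and -0.92 in IP tissue, where 7 were at least 2-fold lower. The part of cell handling in the genotype ratios was not tested.

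By the size of the smaller of both ratios, the largest increases in KO were Il17f, Gm10260, Gm11361, Dnah8 and Lst1, and the largest decreases Tas1r1, Plxdc2, Fcer1g, Ly6c2 and Adk. The Il17f ratio in IP tissue rests mostly on 1 cell of KO IP. Dnah8, a dynein gene, had 3 and 74 UMIs in WT SC and KO SC and 2 and 38 in WT IP and KO IP. Gm11361 shares 86.7% of the 25-base words at its 3′ end with the ribosomal gene Rps18, and Gm10260 shares 75.3% with other genes, so the counts of both are uncertain. Of the 36 Tas1r1 UMIs of WT SC, 35 were in 1 cell, as were all 25 of WT IP. Fcer1g, a signalling chain gene of innate lymphocytes, was seen in 13 of 38 members without Cd163l1 and 2 of 167 with it, and Ly6c2 in 22 and 1. Of the 196 natural killer cell marker UMIs in KO SC members, 113 were of Gzma, which encodes a granzyme, and came from 1 cell.

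**Figure D4:**
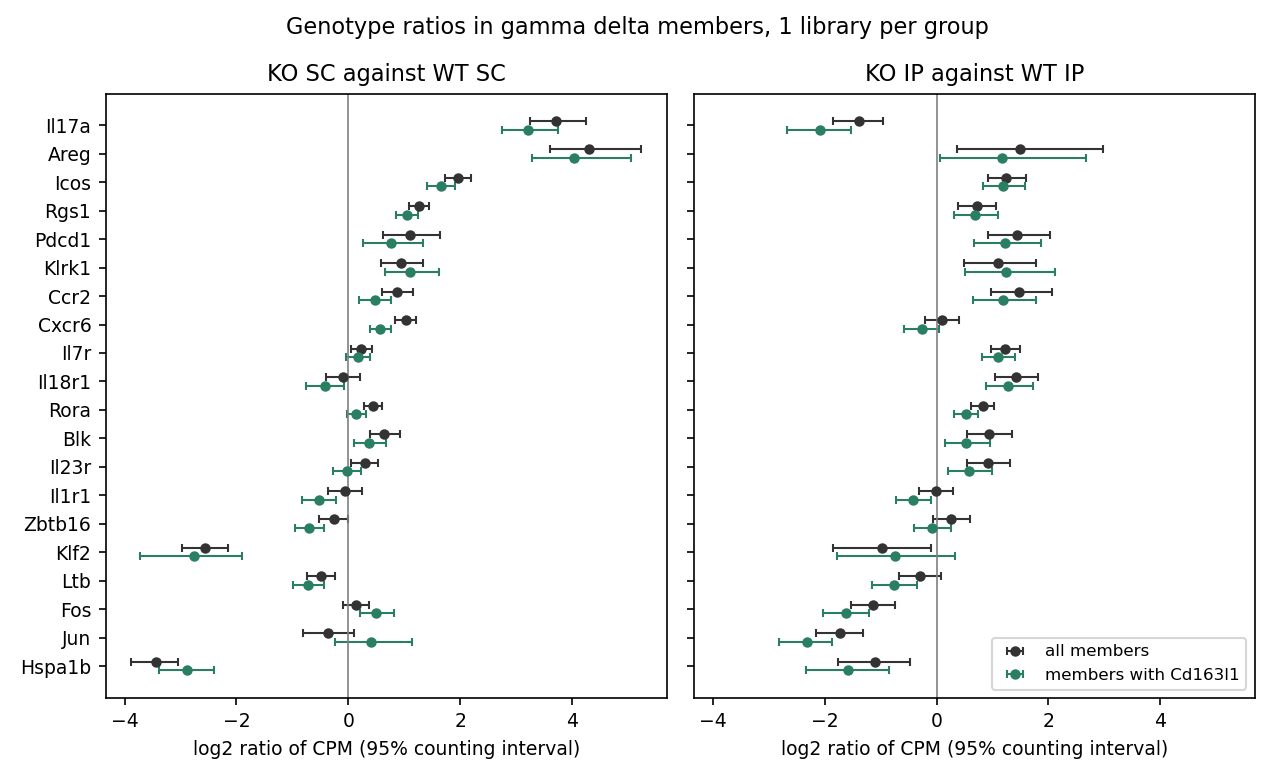
KO to WT log2 ratios of CPM in gamma delta members for 20 genes, in SC tissue (left) and IP tissue (right), over all members (dark) and members with a Cd163l1 UMI (green). Whiskers are exact 95% intervals that cover counting error only. Icos, Pdcd1, Klrk1, Ccr2 and Rgs1 lie right of 0 in both panels, Klf2 and Hspa1b left, and Il17a lies at 3.71 on the left panel and -1.39 on the right one.

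Depots were compared within each genotype in the same way. At least 2-fold higher in IP tissue were 8.55% of 4232 genes in WT and 12.1% of 5935 in KO, and at least 2-fold lower 6.07% and 7.3%. Of 3933 genes compared in both genotypes, 46 were at least 2-fold higher in both (1.17%) and 22 lower in both (0.559%). The comparisons of depot and of genotype use the same 4 libraries and share their samples.

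Itgae marked the SC members. It was seen in 16 of 31 members of WT SC and 79 of 117 of KO SC, but in 2 of 20 of WT IP and 3 of 37 of KO IP. After thinning, the shares were 12.9%, 30.7%, 5.0% and 2.7%. In B cells 1 of 466 in KO SC and 1 of 32 in WT IP had an Itgae UMI. The level was 89.1, 213, 14.1 and 8.80 CPM in WT SC, KO SC, WT IP and KO IP, IP against SC log2 ratios of -2.47 (-5.02 to -0.97) in WT and -4.38 (-6.89 to -3.03) in KO. The IP values rest on 3 UMIs in each library. Other genes that were lower in IP tissue were Cd7, a T and natural killer cell receptor gene (-1.56 and -4.35), Havcr2, which encodes the TIM-3 checkpoint receptor (-2.43 and -2.93), and Id2, which encodes an inhibitor of helix-loop-helix factors (-1.22 and -1.38). For residence genes, 3 of 16 were at least 2-fold lower in IP tissue in WT and 5 of 16 in KO. Rgs1 (-0.87 and -1.41), Ccr2 (-1.22 and -0.61) and Cxcr6 (-0.34 and -1.27) went the same way.

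Genes at higher levels in IP members included Plin2, with IP against SC log2 ratios of 1.62 (0.89 to 2.43) in WT and 1.47 (0.92 to 2.02) in KO, seen in 11 of 31, 28 of 117, 13 of 20 and 26 of 37 members of WT SC, KO SC, WT IP and KO IP. Ramp1, a receptor component for the neuropeptide CGRP, was at 163 and 207 CPM in WT SC and KO SC and at 380 and 437 CPM in WT IP and KO IP, ratios of 1.22 (0.70 to 1.75) and 1.08 (0.75 to 1.41). Il1r1 was also higher, at 0.71 (0.36 to 1.06) and 0.77 (0.51 to 1.01), and so was Bhlhe40, which encodes a factor of cytokine-producing T cells, at 1.48 and 0.65. Cxcr3, a type 1 chemokine receptor gene, had 1 and 5 UMIs in WT SC and KO SC and 9 and 29 in WT IP and KO IP. Lpl, Fabp4, Dcn, Col1a1 and Lum, genes of adipocytes and stroma, were at 0 in WT SC members and present in WT IP members, in up to 4 of 20 cells each.

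By the size of the smaller of both ratios, the largest increases in IP tissue were Cdk14, Rnase4, Epas1, Eif2ak3 and Fgl2, and the largest decreases Plac8, Itgae, Havcr2, Cd7 and Cenpa. Fgl2, which encodes a secreted fibrinogen-like protein, was at 43.0 and 96.1 CPM in WT SC and KO SC and at 202 and 282 CPM in WT IP and KO IP. Epas1, which encodes a hypoxia-inducible factor, had 7 and 8 UMIs in SC tissue and 16 and 24 in IP tissue. Cdk14 had no UMI in KO SC and 54 in KO IP, at least 43.4-fold higher, and in WT IP 1 cell held 16 of 25 UMIs. Rnase4 in WT IP had 17 of its 24 UMIs in 1 cell.

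**Figure D5:**
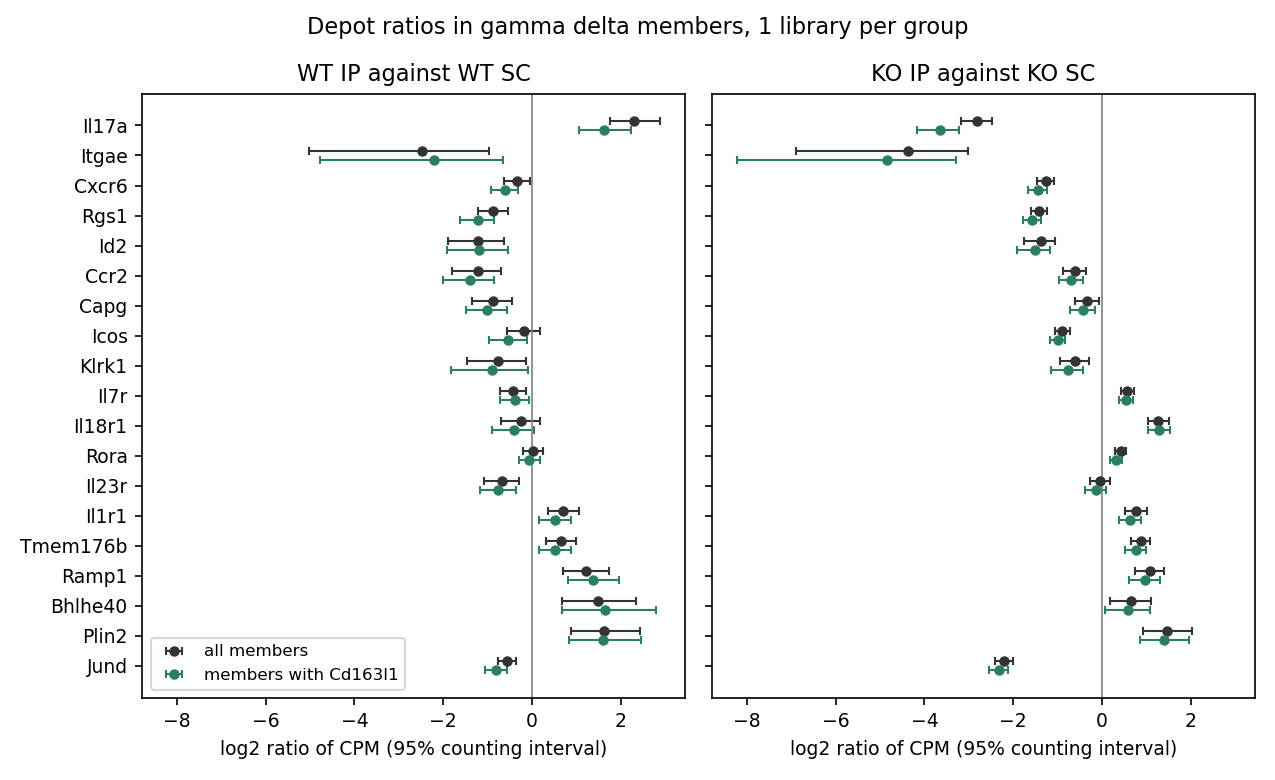
IP against SC log2 ratios of CPM in gamma delta members for 19 genes, in WT (left) and KO (right), over all members (dark) and members with a Cd163l1 UMI (green). Whiskers are exact 95% intervals that cover counting error only. Itgae, Rgs1, Id2 and Ccr2 lie left of 0 in both panels, Plin2, Ramp1, Il1r1 and Bhlhe40 right, and Il17a lies at 2.30 in WT and -2.81 in KO.

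The GFP reporter, switched on by Tie2e-cre and meant to mark endothelial cells, was present in members of all 4 libraries. GFP UMIs without tdTomato UMIs were seen in 20 of 31 members of WT SC, 58 of 117 of KO SC, 14 of 20 of WT IP and 17 of 37 of KO IP. In B cells GFP alone was seen in 130 of 305, 112 of 466, 7 of 32 and 3 of 33. Among other T cells it was seen in 270 of 413, 385 of 1024, 77 of 107 and 27 of 90, so GFP was not particular to members. Of the 84 members of KO SC with an Il17a UMI, 44 also had a GFP UMI. Of 4 endothelial markers, Pecam1, an adhesion gene that leukocytes also use, had 31 to 85 UMIs in members of each library, and Cdh5, Kdr and Cldn5 were at 0.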

How the data were processed

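Single-cell RNA of 4 libraries of mouse adipose stromal vascular fraction was analysed. The authors deposited raw UMI counts per gene and barcode from 10x Chromium 3′ libraries, which the file headers credit to Cell Ranger 7.0.0, and the submitters' processing notes name STAR 2.6 and the mm10 build (GRCm38). The tables held 32290 features, and rows that share a symbol were summed to 32250. A barcode was kept when it had 200 genes or more and its mitochondrial share did not exceed 25%. No doublet was taken out, since Scrublet called 0.556% of kept barcodes, and leaving them out was an alternative. The members and the gene lists were chosen with earlier results of these data known.

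UMIs were summed per library and population and tested with edgeR 4.0.16 (quasi-likelihood test, TMM scaling, filterByExpr, library as a block; R 4.3.3) with Benjamini-Hochberg adjustment at 0.05. Both populations of a library come from the same sample, which is where the pairing comes from. Depot and genotype have 1 library per group, so they have no test. For them the log2 ratio of CPM (0.5 UMI added, at least 20 UMIs per pair) is given with an exact conditional 95% interval for counting error. This interval treats UMIs as independent and leaves out differences between cells. A gene at 0 was set at a floor of 3 UMIs per library. Shares have exact Clopper-Pearson intervals (scipy 1.17.1).

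Named genes were those of the lists, the 10 largest rises and falls with the same sign in all 4 libraries among genes past the threshold, and for depot and genotype the 5 largest rises and falls by the smaller ratio of the 2 pairs. Rule, receptor, immunoglobulin, haemoglobin, ribosomal and mitochondrial genes were left out of these rankings. Genes named for a split by Cd163l1, for 1 cell that holds most UMIs or as examples beside the rankings were chosen after their values were seen. Alternatives were DESeq2 1.42.0, other scalings, no low count filter, no block, other comparison cells (other T cells without Cd4 and Cd8 UMIs, and Cd4 T cells without UMIs of 2 naive cell genes), receptor minimums of 2 and 4 UMIs, stricter filters, thinning to 2000 UMIs a cell, a pseudocount of 1 UMI and each library left out. Chosen after seeing the data were the fits without barcodes found in 2 libraries, without members that held markers of other cell types, and with Cd163l1 members alone. Scripts were tested on simulated data. GENCODE vM21 and RefSeq sequences of GRCm38 were used. Some list genes are not reported here.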

Additional observations from a re-analysis of the deposited data

Results flagged for a closer look

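Among list genes compared in both depots, 6 of 58 had KO to WT intervals on opposite sides of 0, and 2 of these were past 2-fold both ways. Il17a was at a log2 ratio of 3.71 in SC tissue and -1.39 in IP tissue. Klrd1, part of a natural killer receptor, was at 1.07 and -2.57. Between depots, 12 of 60 genes were on opposite sides in WT and KO, and 3 were past 2-fold both ways. Il17a was at an IP against SC log2 ratio of 2.30 in WT and -2.81 in KO, 5830411N06Rik at -2.32 and 1.08, and S1pr1 at -2.53 and 1.05. In WT IP 5830411N06Rik had 6 UMIs and S1pr1 had 5. The Il17a ratios of depot and of genotype are made from the same 4 values. None of these differences between pairs was tested, since each group is 1 library. The share of all genes with intervals on opposite sides of 0 was not computed, so these counts have no background. By sign alone, 49.9% of 4111 genes went the same way in both depots, and 50.2% of 3933 in both genotypes.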

How the results depend on the processing

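Of the main results under each alternative, 219 stayed within their limits, 34 moved and 1 reversed. With CD3 barcodes as denominator the IP against SC log2 ratio of shares was 1.22 in WT and 1.52 in KO, and 1.17 and 1.53 without barcodes found in 2 libraries, an alternative chosen after seeing the data. DESeq2 called 9 residence genes higher. Without a low count filter, 789 genes were lower, 8 of them homing genes. Against other T cells without Cd4 and Cd8 UMIs, 230 genes were higher and 96 lower, with 1 homing and 1 type 1 gene lower. Against a narrower set of Cd4 T cells, 285 were higher and 196 lower, the type 17 median was 2.11, 3 residence genes were higher, 3 homing genes and 1 type 1 gene lower, and the type 1 median was 0.65, with Maf at -0.039 and Klrd1 at 1.14. Without the replicate block 514 genes were higher and 307 lower, with 2 homing and 0 type 1 genes lower. A receptor minimum of 4 UMIs left 1 type 1 gene lower. Thinning to 2000 UMIs gave 278 higher and 269 lower, over fewer genes tested. Members without other cell types' markers, chosen after seeing the data, gave 10 homing genes lower, and 17 genes higher and 12 lower in KO in both pairs. Members with Cd163l1, chosen likewise, gave 19 lower in both pairs, with KO SC to WT SC log2 ratios of -0.11 for Cd163l1 and -0.029 for Il23r. The cause was not tested.

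With each library left out in turn, 247 to 610 genes were higher and 125 to 421 lower. The type 17 count was 15 to 22 with medians of 3.34 to 4.14, the residence count 2 to 6 with medians of 0.78 to 1.48, the homing count 2 to 6 with medians of -1.99 to -1.17, and the type 1 count 1 to 4 with medians of -1.42 to -0.04. Both lowest gene counts were without WT SC. IP members numbered 20 and 37, which limits the depot and genotype ratios.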
